A study of Homo sapiens with 2 samples.

Results

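The protein-coding genes whose symbol begins with KCN encode potassium channels and the proteins that assemble with them. They were read from RNA-Seq counts of A1847 cells, a human epithelial ovarian cancer line, in 1 library of parental control cells with wild-type CARM1 and 1 library of CARM1 KO cells. The KO cells descend from a single clone made with a lentiviral CRISPR vector carrying a guide RNA against CARM1, an arginine methyltransferase, and both cultures grew in the same serum-supplemented medium. The RNA-Seq was done to look into why cells with CARM1 are more sensitive to inhibitors of the histone methyltransferase EZH2. After Ensembl identifiers were paired with GENCODE symbols, 94 protein-coding genes with such a symbol were taken among 57736 genes in the table, and 1 gene of that kind was left out by the rule. By their names, 77 of them are pore-forming or modifying channel subunits, and 17 are accessory or regulatory proteins that do not form a pore.

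Potassium channels let potassium leave or enter the cell along its gradient and so set the resting membrane potential. In cells without action potentials, such as epithelial and carcinoma cells, they are known for their part in volume regulation, salt and water transport, migration and passage through the cell cycle. Voltage-gated Kv channels, KCNQ and KCNH channels open on depolarisation, KCNJ channels pass current more easily inwards, KCNK channels carry a background leak, and the KCNM, KCNN and KCNT channels respond to calcium or sodium inside the cell. Most pores are built from several subunits, which may be identical or mixed, and the makeup of the pore changes its current.

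With 1 library per condition there was no replicate, so no difference below has a replicate check, no p-value is given, and a difference between CARM1 KO and parental cells cannot be told apart from one between a clone and the population it came from. A gene whose reads in the 2 libraries summed to at least 10 was called higher or lower when its level, after TMM scaling of the library totals of 30741953 parental and 32300391 CARM1 KO reads, differed more than 3-fold and the exact 95% counting interval of the fold left out 1. Such intervals cover counting error only. Where a pair of values is given, the parental value stands first. A count of 0 allows up to 3 reads, and a fold against 0 is given with the 0 set to that floor. This takes no account of counting error in the other library, which the exact interval does. CARM1 itself had 975 parental reads against 380 in the KO library, which is 2.63-fold lower (95% interval 2.33 to 2.97), so its transcript was reduced and not absent in the library labelled KO. Reads do not measure the protein, which the authors examined by immunoblot in parental and knockout cells. Of 7 markers of ovarian epithelial tumour cells, 4 were called higher and 0 lower in CARM1 KO cells, with 43739 parental and 150245 CARM1 KO reads in sum. WT1, a transcription factor of serous ovarian tumours, had 8 and 1 reads, and MUC16, the CA125 antigen, had 0 and 1 reads, in parental and CARM1 KO cells in that order. Of 4 fibroblast markers 3 were called lower and 1, COL1A1, higher. Their summed reads went from 14542, of which 14326 were PDGFRA, to 540, of which 537 were COL1A1. The 5 neuronal markers held 80 and 339 summed reads, 1 of them was called higher (SYT1, at 50 and 296), and RBFOX3 had 10 and 11. Each of the 3 leukocyte and 2 matched endothelial markers had 9 reads or fewer in either library, with CD14, at 1 and 9, called higher, CDH5 and CD3E at 0 in both, and PTPRC at 6 and 0. In these bulk libraries, fewer cells of a type and less RNA per cell cannot be told apart, and the part of these shifts in the results below was not tested.

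Among the KCN genes, 20 had no read in either library, 27 had 1 to 9 reads in both together, and 47 reached 10 reads. Of these 47, 11 were called higher in CARM1 KO cells, 10 were called lower, and 26 were neither. As a share of the genes with 10 reads this is 23.4% higher and 21.3% lower. Over all genes tested 12.4% were called higher and 11.2% lower, and over all protein-coding genes 12.4% and 9.02%. Few-read genes were called more often: among protein-coding genes with no more reads than the most abundant KCN gene, 18.6% were called higher and 13% lower. Both KCN shares were somewhat above these, by a few genes each, and the margins were not tested. That background was not matched in depth. Its tested genes had a median of 282 reads in both libraries together, against 61 in the KCN genes. The median log2 fold change of the 47 genes, with a prior count of 2, was 0.25, against 0.09 for protein-coding genes of that read range and -0.03 for all genes tested.

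Differences of more than 10-fold were more often lower than higher in CARM1 KO cells, in the KCN genes and in the background alike. Lower by more than 10-fold were 6 KCN genes, 12.8% of those tested, among them KCNAB3, KCNH2, KCNT2 and KCND2. Higher by more than 10-fold were 0, although the folds of KCNH8 and KCNA4 are set by the floor. In the background of the same read range, where the median of reads was higher, 5.02% of genes were lower and 2.37% higher by that much. The margin between the KCN genes and this background was not tested. The limit of 10-fold was chosen after the values were seen. Reads were found in both libraries for 54 KCN genes and in parental cells only for 7 genes with at most 9 reads each. In CARM1 KO cells only, 13 genes had reads, at most 18 each. Of the 94 KCN genes, 33 had no parental read, 27 had no CARM1 KO read, and 20 had no read in either. Of all 19391 protein-coding genes, 3839 had no parental read, 4103 had no CARM1 KO read, and 3192 had no read in either. There the balance ran the other way, and the difference was not tested.

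**Figure D1:**
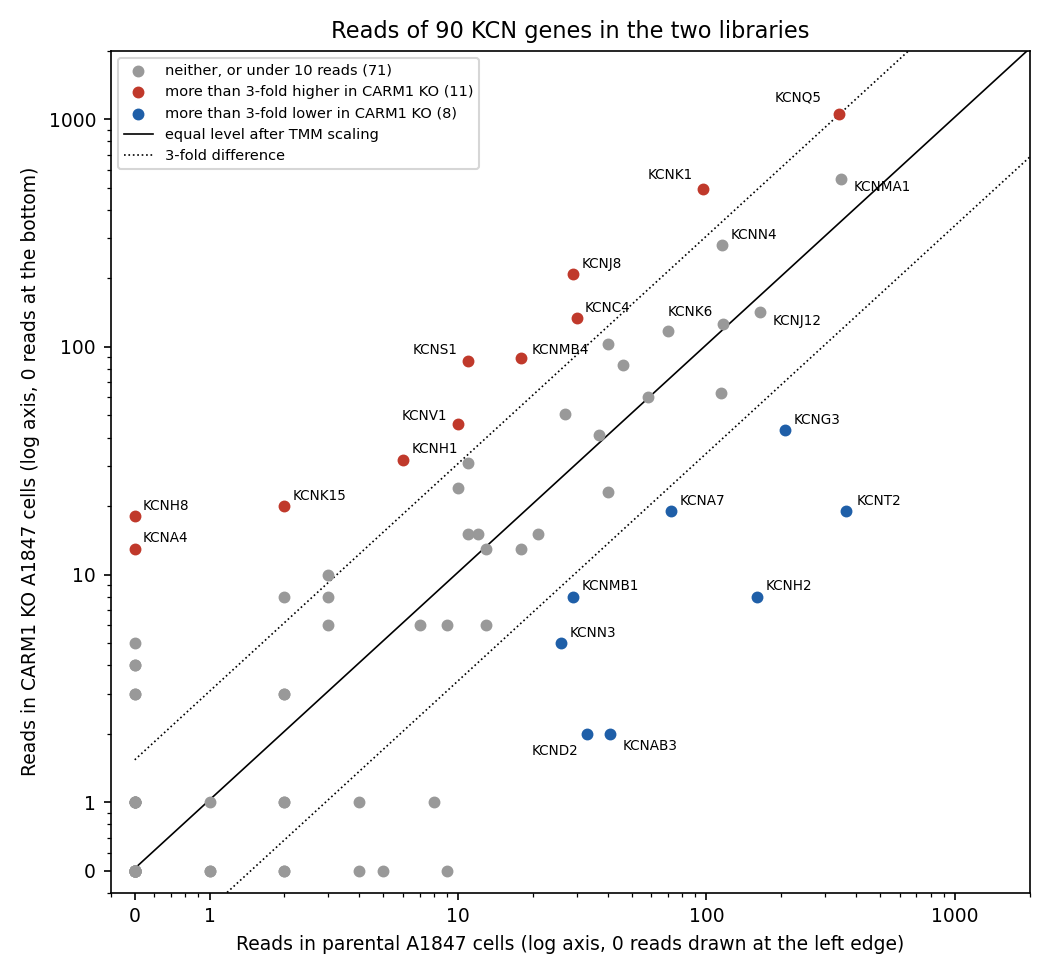
Reads of 90 KCN genes in parental (horizontal) and CARM1 KO cells (vertical), on log axes with 0 reads drawn at the edge; the solid line marks equal level after scaling and the dotted lines a 3-fold difference. The 11 genes called higher (red) lie above the upper dotted line and the 8 plotted genes called lower (blue) below the lower one, among them KCNT2 at 365 and 19 reads.

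The genes were divided into classes by symbol. KCNU1, at 0 and 1 reads and not tested, stands among the calcium- or sodium-activated pores by symbol only. The calls fell on both sides in the pore-forming Kv1 to Kv4 genes, with 2 higher and 3 lower of 7 tested, in the Kv modifiers, with 2 higher and 1 lower of 4, and in the KCNH genes, with 2 higher and 1 lower of 4. The KCNK leak channels had 2 higher and 0 lower of 5 tested. Of 8 inward rectifiers 1 was called higher and 0 lower, and of 6 calcium- or sodium-activated pores 0 were called higher and 2 lower. Accessory genes had 1 higher and 2 lower of 10. These numbers are small, and no difference between the classes was tested.

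**Figure D2:**
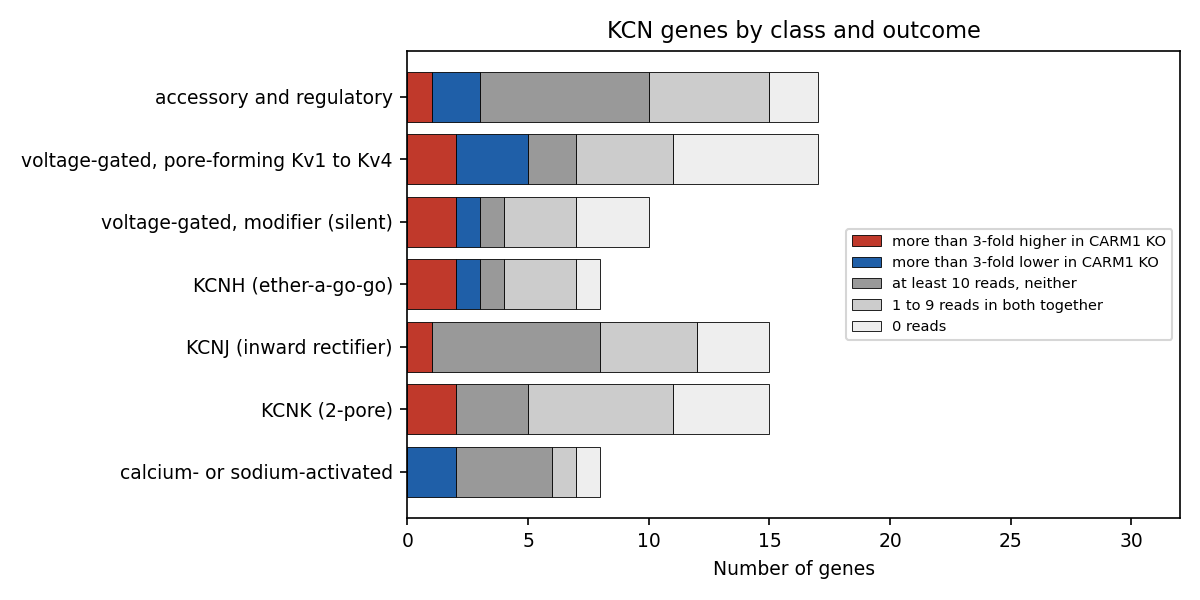
Number of KCN genes in each of 7 classes (horizontal axis), divided by outcome: called higher or lower in CARM1 KO cells, at least 10 reads but neither, 1 to 9 reads, and 0 reads. The KCNK and KCNJ bars hold no gene called lower, and the calcium- or sodium-activated bar holds none called higher.

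Levels of different genes were compared as RPKM, computed from the counts with merged exons as the length and the TMM-scaled library totals. On this scale the KCN genes were weakly expressed: 90 of 94 lay under 1 in parental cells and 90 of 94 in CARM1 KO cells. Among the 4 genes at 1 or more in parental cells were KCNG3, a silent modifier of Kv channels, at 1.79, KCNT2, a sodium-activated channel, at 1.63, and KCNN4, the intermediate-conductance calcium-activated channel, at 1.19. In CARM1 KO cells the 4 genes were KCNK1 at 4.37, KCNQ5, a Kv7 channel, at 2.91, KCNN4 at 2.81 and KCNJ8 at 2.61. On this length KCNN4 alone was in both sets. With the longest transcript in place of merged exons, KCNT2 was at 1.92, KCNN4 at 1.90 and KCNG3 at 1.79 in parental cells, so their order depends on the length used. So does their number: 8 genes were then at 1 or more in parental cells, with KCNQ5 at 1.63, KCNK1 at 1.49, KCNH2 at 1.09 and KCNJ12 at 1.00 added, and 5 in CARM1 KO cells, with KCNMA1 at 1.42 added. KCNN4, KCNQ5 and KCNK1 were then in both sets. KCNQ5 at 4.93, KCNN4 at 4.49 and KCNJ8 at 2.81 followed KCNK1 in CARM1 KO cells. KCNK1 itself was at 7.40. Summed over the 94 genes, the level was 17.2 in parental and 21.9 in CARM1 KO cells, a smaller difference than that of many single genes.

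**Figure D3:**
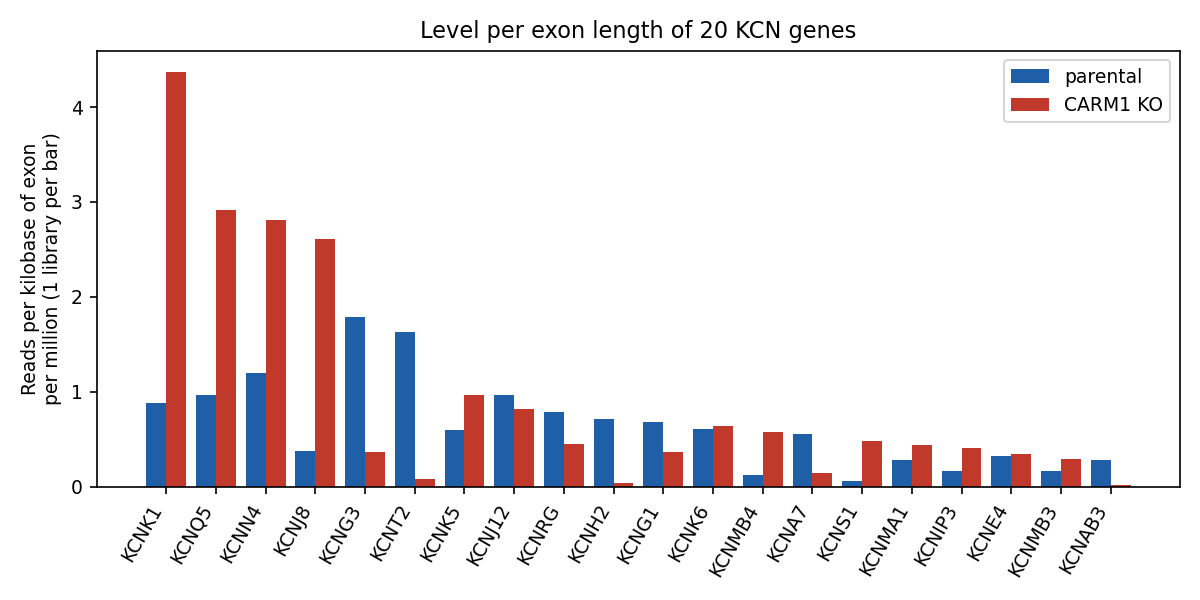
Level of 20 KCN genes among those with the highest values in either library, in RPKM, in parental (blue) and CARM1 KO cells (red); each bar is 1 library and has no error bar. KCNG3 and KCNT2, which lead in parental cells, are low in CARM1 KO cells, where KCNK1, KCNQ5, KCNN4 and KCNJ8 lead.

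KCNQ genes encode Kv7 subunits, which carry the slow M-type current that steadies the membrane potential. KCNQ5 (ENSG00000185760), at chr6:73331520-73908576 (GRCh37, plus strand), was the most abundant KCN gene by reads, with 340 parental and 1052 CARM1 KO reads. This was 3.02-fold higher after scaling (95% interval 2.67 to 3.43), just past the limit, and with library size as the only scaling it was no longer called. In RPKM, KCNQ5 was at 0.964 in parental and 2.91 in CARM1 KO cells. KCNQ3, another Kv7 subunit, had 0 and 1 reads.

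Among the pore-forming Kv1 to Kv4 genes, calls were made in the Kv1, Kv3 and Kv4 groups. KCNC4, a fast Kv3 channel, had 30 and 134 reads, a 4.36-fold higher level (95% interval 2.92 to 6.72). KCNC1 had 8 and 1 reads and KCNC2 had 0 in both. Of the Kv1 genes, KCNA7 was lower in CARM1 KO cells, with 72 and 19 reads (3.88-fold, 95% interval 2.31 to 6.81), and KCNA4 went from 0 to 13 reads, at least 4.23-fold higher against the floor of 3 reads, where the exact 95% interval begins at 2.98. The other Kv1 genes, KCNA1, KCNA2, KCNA3, KCNA5 and KCNA10, had no read in either library, and KCNA6 had 4 and 0. KCND2, a pore of the rapidly inactivating A-type current, had 33 parental and 2 CARM1 KO reads, a 16.9-fold lower level (95% interval 4.32 to 145.3). Its relative KCND1 had 11 and 31 reads, a 2.75-fold higher level under the limit (95% interval 1.35 to 6.07). KCNB2, a Kv2 pore, was near the floor with 3 and 10 reads, and the interval of its fold, 0.84 to 18.4, held 1.

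The modifier or silent Kv subunits form no channel alone and change the current of the Kv2 pores they join. KCNG3 (ENSG00000171126), at chr2:42669157-42721122 (minus strand), had 207 parental and 43 CARM1 KO reads, a 4.93-fold lower level (95% interval 3.53 to 7.02). KCNG1 had 114 and 63 reads, a 1.85-fold lower level under the limit (95% interval 1.35 to 2.56). In the other direction, KCNS1 had 11 and 87 reads, a 7.72-fold higher level (95% interval 4.11 to 16.0), and KCNV1 had 10 and 46 reads, a 4.49-fold higher level (95% interval 2.24 to 9.99). In both libraries KCNG3 and KCNG1 each had more reads than KCNB2. KCNG2, KCNG4 and KCNS2 had no read.

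KCNH2, which encodes the hERG channel known for repolarising the heart and found in many carcinomas, was the KCNH gene with the most reads in parental cells. KCNH2 (ENSG00000055118), at chr7:150642049-150675409 (minus strand), had 160 parental and 8 CARM1 KO reads, a 20.5-fold lower level (95% interval 10.1 to 48.2). KCNH1, the ether-a-go-go channel that is also studied in tumours, had 6 and 32 reads, a 5.21-fold higher level (95% interval 2.15 to 15.2). Of the merged KCNH1 exons 18.7% are shared with another gene on the same strand and 28.1% with one on the other strand, so how its few reads divide is uncertain. KCNH8 went from 0 to 18 reads, at least 5.86-fold higher against the floor of 3 reads, where the exact 95% interval begins at 4.29. KCNH3 had 13 reads in both libraries. KCNH1 stood below KCNH2 of parental cells in level per length, at 0.0780 RPKM in CARM1 KO cells against 0.713 in parental cells.

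In the inward rectifiers KCNJ8 stood alone. KCNJ8, the Kir6.1 pore of ATP-sensitive potassium channels, had 29 parental and 209 CARM1 KO reads, a 7.04-fold higher level (95% interval 4.76 to 10.8). It is located at chr12:21917889-21928534 (minus strand), and ABCC9, the sulfonylurea receptor SUR2 with which it assembles, is the nearest neighbour with at least 50 reads on one side, 21.8 kb away, while LDHB on the other side had 39957 and 32851. ABCC9 had 210 and 514 reads, a 2.39-fold higher level (95% interval 2.03 to 2.82), under the limit. The other pore and receptor of this channel type were low in both libraries: KCNJ11 had 12 and 15 reads and ABCC8 had 1 and 0. KCNJ12, a strong rectifier with near-identical copies that can divide its reads, had 164 and 142 reads, and KCNJ15 had 58 and 60. Their fold intervals, 0.67 to 1.07 for KCNJ12 and 0.69 to 1.48 for KCNJ15, held 1. Of the G-protein-gated rectifiers KCNJ5 had 9 and 6 reads, KCNJ3 had 9 and 0, KCNJ6 had 0 and 1, and KCNJ9 had none.

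KCNK1, the TWIK-1 leak channel, was the most expressed KCN gene per length in CARM1 KO cells. KCNK1 (ENSG00000135750), at chr1:233749852-233808260 (plus strand), had 97 parental and 492 CARM1 KO reads, a 4.95-fold higher level (95% interval 3.98 to 6.22). KCNK15 had 2 and 20 reads, a 9.77-fold higher level with a wide interval of 2.37 to 86.2, and 22.4% of its exon bases are shared with genes on the other strand. KCNK5, the acid-sensitive TASK-2 channel of transporting epithelia, had 70 and 117 reads, a 1.63-fold higher level (95% interval 1.2 to 2.23), and KCNK6, the TWIK-2 channel, had 117 and 126 (interval 0.81 to 1.36). KCNK3 had 3 and 8 reads, and the other 10 genes of the class had 9 reads or fewer in both libraries together. The summed RPKM of the class was 2.22 in parental and 6.35 in CARM1 KO cells, and KCNK1 made up 0.883 and 4.37 of these sums.

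Of the pores gated by calcium or sodium, KCNT2 was the one that differed most. KCNT2 (ENSG00000162687), at chr1:196194909-196578355 (minus strand), had 365 parental and 19 CARM1 KO reads, a 19.7-fold lower level (95% interval 12.4 to 33.0). Its paralog KCNT1 had no read in either library. KCNN3, a small-conductance calcium-activated channel, had 26 and 5 reads, a 5.32-fold lower level (95% interval 2.01 to 17.8). KCNN4 had 116 and 280 reads, a 2.36-fold higher level under the limit (95% interval 1.89 to 2.95), and KCNN2 had 10 and 24 reads with an interval of 1.08 to 5.49. KCNN1 had 21 and 15 reads. KCNMA1, the large-conductance BK pore, had 349 and 547 reads, a 1.53-fold higher level (95% interval 1.34 to 1.76), and was the one uncalled KCN gene whose reads summed to at least 500.

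The accessory subunits of the BK channel, which tune its calcium response and inactivation, differed in opposite directions. KCNMB1, the subunit typical of smooth muscle, had 29 parental and 8 CARM1 KO reads, a 3.71-fold lower level (95% interval 1.66 to 9.40). KCNMB4, the subunit typical of brain, had 18 and 89 reads, a 4.83-fold higher level (95% interval 2.89 to 8.52). In RPKM, KCNMB1 was at 0.154 and 0.0416 and KCNMB4 at 0.119 and 0.574 in the same order, beside KCNMA1 at 0.284 and 0.435. With the longest transcript KCNMA1 was at 0.928 and 1.42 and KCNMB4 at 0.123 and 0.592, so the order of the pore and KCNMB4 in CARM1 KO cells depends on the length used. KCNMB3 had 46 and 83 reads, but 38.0% of its exon bases are shared with genes on the other strand, among them PIK3CA, and KCNMB2 had no read.

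The remaining accessory genes gave 1 further call. KCNAB3, a beta subunit of Kv1 channels, had 41 parental and 2 CARM1 KO reads, a 21.0-fold lower level (95% interval 5.45 to 179.1). KCNAB2, the most widely expressed beta subunit, had 27 and 51 reads (1.84-fold higher and not called, 95% interval 1.14 to 3.06), and KCNAB1 had 0 and 4. KCNIP3, a calcium sensor that binds Kv4 pores and also acts as a transcriptional repressor, had 40 and 103 reads, a 2.52-fold higher level under the limit (95% interval 1.73 to 3.72). The KCNE genes, single-pass subunits of Kv7 and KCNH pores, were low, and KCNE4 led them with 37 and 41 reads. KCNRG had 40 and 23 reads, but 66.8% of its exon bases are shared with TRIM13 on the same strand, so how the reads divide between them is uncertain.

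**Figure D4:**
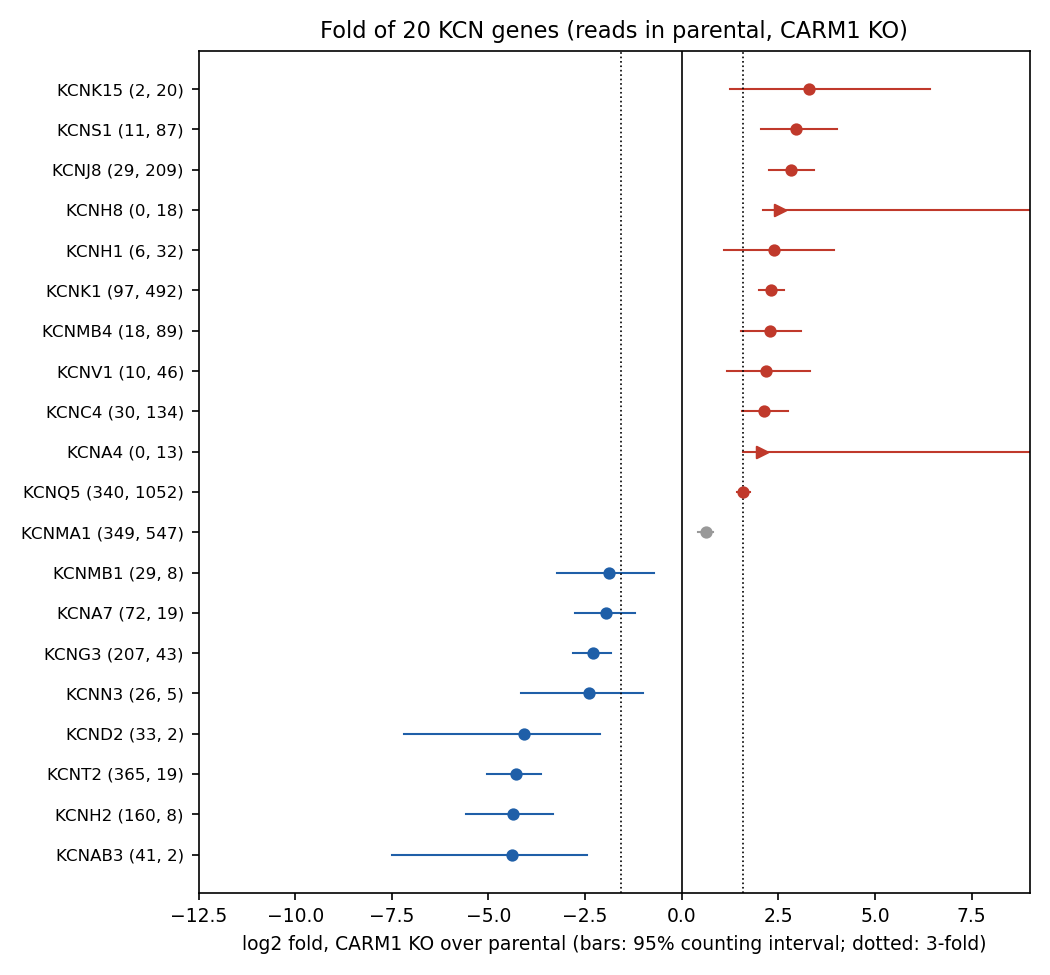
Fold of 19 called KCN genes and KCNMA1, as log2 of CARM1 KO over parental level, with bars for the 95% counting interval and dotted lines at 3-fold; arrowheads mark folds against 0 reads with the 0 set to 3, and labels give the reads in parental and CARM1 KO cells. For KCNK1, KCNJ8, KCNS1 and KCNH8 the whole interval lies past the upper line, and for 5 plotted genes it lies past the lower line.

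Counting error alone limits several of the calls. The whole interval lay past 3-fold for 4 of the 11 genes called higher, namely KCNK1, KCNJ8, KCNS1 and KCNH8, and for 7 of the 10 called lower, among them KCNAB3, KCNH2, KCNT2, KCND2 and KCNG3. Another limit is the spread between cultures, which was not measured. If a biological coefficient of variation of 0.4 is assumed in the exact test of edgeR, KCNH8, KCNJ8 and KCNS1 remained called higher, and 6 genes, among them KCNAB3, KCNH2, KCNT2 and KCND2, remained called lower.

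The promoters of the genes were compared in their content of CG, the dinucleotide that carries most DNA methylation in human cells. RefSeq promoters (GRCh38.p14) matched 71 of the 94 genes, and 49 of these had a single start. In the 250 bases before the start, CG was counted on the given strand, and the count is the same on either strand. The 7 genes called higher with a single start held a median of 30 CG, and 5 of the 7 held 20 or more. The 5 called lower held a median of 15, and 2 of the 5 held 20 or more. The windows of KCNMB1 and KCNT2 among the lower genes, and of KCNQ5 among the higher, lie wholly within exons of the same gene. Without them the 3 lower genes had a median of 34 and the 6 higher genes one of 30, so the order of the medians turns. Leaving them out was chosen after seeing the data. The 13 that were neither held a median of 11. Over all 49 KCN genes the median was 17 and 42.9% held 20 or more. Over 11039 protein-coding genes with a single start the median was 18, and 45.2% held 20 or more. The ranges overlapped, from 15 to 36 in the genes called higher and from 5 to 40 in those called lower. The groups are too small to compare further, and CG content is a description of the sequence only.

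Below are 4 of these windows, each 5′ to 3′ with CG in capitals. They were picked as examples of CG-dense and CG-poorer promoters in either direction, so their balance is not a result. Positions are those of the single exact match on the same chromosome of GRCh37. The KCNK1 and KCNJ8 genes were higher in CARM1 KO cells and have 30 and 15 CG, and the KCNG3 and KCND2 genes were lower and have 40 and 15. The RefSeq start equals the GENCODE gene start for KCNK1, KCNG3 and KCND2 and lies 894 bp within the KCNJ8 gene.
KCNK1, GRCh37 chr1:233749602-233749851, plus strand: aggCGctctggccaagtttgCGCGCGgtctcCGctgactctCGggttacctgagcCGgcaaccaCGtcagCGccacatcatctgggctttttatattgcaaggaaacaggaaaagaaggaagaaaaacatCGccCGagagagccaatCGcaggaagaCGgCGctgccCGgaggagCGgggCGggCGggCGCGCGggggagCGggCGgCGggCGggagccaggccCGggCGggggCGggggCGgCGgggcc
KCNJ8, GRCh37 chr12:21927641-21927890, minus strand: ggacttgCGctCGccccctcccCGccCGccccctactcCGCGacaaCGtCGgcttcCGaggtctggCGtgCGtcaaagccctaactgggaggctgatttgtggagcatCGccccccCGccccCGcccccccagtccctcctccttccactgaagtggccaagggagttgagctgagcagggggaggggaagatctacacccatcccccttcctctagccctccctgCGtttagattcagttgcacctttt
KCNG3, GRCh37 chr2:42721123-42721372, minus strand: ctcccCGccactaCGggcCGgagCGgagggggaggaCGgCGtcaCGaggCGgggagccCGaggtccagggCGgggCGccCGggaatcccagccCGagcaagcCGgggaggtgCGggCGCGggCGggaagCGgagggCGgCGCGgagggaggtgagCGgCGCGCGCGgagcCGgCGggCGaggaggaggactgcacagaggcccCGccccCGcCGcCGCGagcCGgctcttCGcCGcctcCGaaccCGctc
KCND2, GRCh37 chr7:119912979-119913228, plus strand: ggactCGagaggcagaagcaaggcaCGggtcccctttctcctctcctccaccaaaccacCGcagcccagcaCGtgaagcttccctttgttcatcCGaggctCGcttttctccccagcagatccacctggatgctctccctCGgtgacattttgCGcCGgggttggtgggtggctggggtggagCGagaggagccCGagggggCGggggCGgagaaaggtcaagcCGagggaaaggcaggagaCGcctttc

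The nearest protein-coding neighbours with at least 50 reads were read on each side of the 21 called genes. Of 42 neighbours, 10 were called in the direction of the KCN gene beside them, 3 in the opposite direction and 29 in neither, where 11.1% of protein-coding genes with at least 50 reads were called higher and 7.45% lower. In some pairs both genes were lower in CARM1 KO cells. NTF4, a neurotrophin 2.32 kb from KCNA7, had 165 parental and 17 CARM1 KO reads, and NOS3, the endothelial nitric oxide synthase 12.7 kb from KCNH2, had 321 and 87. Of the pairs in which both were higher, HHAT, 0.53 kb from KCNH1, had 36 and 205 reads, and SLC6A17, 8.11 kb from KCNC4, had 48 and 252.

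Other genes that handle potassium were described from a list of 32 pumps, cotransporters, channel partners and HCN channels. Of these, 15 reached 10 reads, 2 were called higher and 1 lower, and 12 were neither, beside the 12.4% and 11.2% of all genes. ATP1B1, the main beta subunit of the sodium-potassium pump, had 544 and 1932 reads, a 3.47-fold higher level (95% interval 3.15 to 3.82). Its relative ATP1B2 went from 24 reads to 0, at least 8.19-fold lower against the floor of 3 reads, where the exact 95% interval begins at 6.16, and ATP1B3 had 2705 and 2725. HCN4, a pacemaker channel, had 6 and 35 reads, a 5.70-fold higher level (95% interval 2.37 to 16.6). SLC12A2, the sodium-potassium-chloride cotransporter NKCC1, had 3982 and 1894 reads, a 2.15-fold lower level under the limit (95% interval 2.04 to 2.27). DPP6 and DPP10, partners of the KCND pores, had no read. The list had a median absolute log2 fold change of 0.62 against 1.29 in the KCN genes, and its tested genes also had more reads, with medians of 338 and 61. The same measure was 0.69 over all genes tested and 0.91 over protein-coding genes with no more reads than the most abundant KCN gene.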

How the data were processed

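RNA-Seq counts were analysed for 1 parental and 1 CARM1 KO library of A1847 cells. The authors prepared libraries with the ScriptSeq complete Gold kit, aligned reads to hg19 with bowtie2, used RSEM to estimate the reads of each Ensembl gene and deposited them as whole-number count values that were not normalized. Whether counting used strand is not given in the sources used here, so reads of overlapping genes on opposite strands may not be separable. Besides KCNH1 and KCNK15, KCNJ8 shares 10.7% of its exon bases with a gene on the other strand, KCNQ5 8.22% and KCNV1 8.00%. KCNAB3 shares 5.44% with a gene on its own strand. RSEM divides reads between similar genes.

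GENCODE 44 lifted to GRCh37 named 55501 of 57736 identifiers, gave merged exon lengths and selected the 94 KCN genes. Counts were scaled with TMM in edgeR 4.0.16 (R 4.3.3), and folds had exact binomial intervals from scipy 1.17.1. Calls needed at least 10 reads, a fold above 3, the limit used by the authors, and an interval without 1. With 1 library in each condition, no quasi-likelihood test of edgeR could be fitted. Calls were made on the whole table, and the calling was tested on simulated data. These held counting error only, and changes were planted in genes above a minimum of expected reads. They cannot show how the calling fares with spread between cultures or with few reads. Genes named by rule were CARM1, the KCN genes called, uncalled ones with at least 500 reads, the highest RPKM of each class, and called genes of the other potassium list. Further genes named were chosen after their values were seen. Promoters came from RefSeq (GRCh38.p14) and were placed on GRCh37 by exact match. Some genes that enter the counts are not reported here by name and are not drawn. Members and lists were chosen with earlier results of these data known. Alternatives were other scalings (DESeq2 1.42.0 among them), minimum reads, call rules and exon lengths.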

Additional observations from a re-analysis of the deposited data

How the results depend on the processing

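Depth limits the KCN genes, 47 of which had under 10 reads, and the spread between cultures is unknown. Of the 11 KCN genes called higher, 7 remained with a minimum of 50 reads, 4 with the interval wholly past 3-fold and 3 in the exact test of edgeR under an assumed coefficient of variation of 0.4. Among the 10 called lower, 6 remained with 50 reads and 6 at that coefficient. Over all genes, the calls higher became 1292 with the interval past 3-fold and 543 at 0.4, from 2295, and the calls lower became 1219 with 50 reads, 1234 with the interval past 3-fold, 3180 at a fold above 2 and 888 at 0.4, from 2070. In the other potassium genes, the calls higher became 1 with 50 reads, 1 with the interval past 3-fold, 5 at a fold above 2 and 0 at 0.4, and the calls lower became 0 with 50 reads and 2 at a fold above 2. At 0.12 in the exact test, the KCN calls were 11 and 10. Each other scaling moved all genes by the same amount, at most 0.037 in log2, which is narrower than the counting intervals. The 66 comparisons of 22 single KCN genes under these scalings, with 66 within the interval and 0 reversed, are therefore no separate checks. No paired analysis was possible because each condition has 1 library, which also means that none could be dropped.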

Other observations

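Among 22 non-coding genes or pseudogenes named after a KCN gene, 14 had no read in either library and 1 reached 10 reads. This was KCNJ5-AS1, an antisense gene within the KCNJ5 locus, which had 25 parental and 162 CARM1 KO reads, a 6.33-fold higher level (95% interval 4.14 to 10.1). KCNJ5 itself, a G-protein-gated inward rectifier, had 9 and 6 reads. KCNH1-IT1, within KCNH1, had 1 and 7 reads.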
